A study of Mus musculus with 8 samples.

Results

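Osteoclasts (OCs), the multinucleate cells that resorb bone, and macrophages grow out of the same myeloid precursors, and a small set of transcription factors steers that choice. The 9 genes followed here are *Nfatc1*, *Spi1*, *Mitf*, *Tfec*, *Prdm1*, *Bcl6*, *Cebpa*, *Cebpb* and *Runx1*, taken by symbol out of 21958 genes counted by bulk RNA-seq. All 9 were found, and all 9 passed the filter on low counts in both experiments. The rule that took them used no measured value, but the 9 were chosen with earlier results of these data known. The libraries came from bone marrow-derived monocytes (BMDMs) of C57BL/6 mice, a few weeks old by the study's methods, and every culture was given M-CSF at 50 ng/ml, a survival factor of this lineage, together with RANKL at 100 ng/ml, the signal for OC formation. In the first experiment 2 libraries with the genotype label CONTROL, whose alleles are not spelled out, were set against 2 libraries of *LysM-Cre;Arid1a*fl/fl cells (Arid1a cKO), in which Cre under the lysozyme M promoter cuts out a stretch of *Arid1a*. The BAF complex, which moves nucleosomes, contacts DNA in part through ARID1A, and the lysozyme M promoter is active in monocytes, macrophages and neutrophils. In the second experiment all cells were wild type, and 2 libraries from cultures with JQ1 were compared with 2 from cultures without it. JQ1 blocks the bromodomains by which BET proteins hold acetylated histones. The time after RANKL is not given in the sources used here, nor whether the 2 libraries of a group came from separate mice, so the p-values measure the spread between these libraries, which may be technical.

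In the OC pathway, RANKL switches on NFATc1, the factor that drives the genes of bone resorption, while PU.1 (encoded by *Spi1*) and MITF are already present in the precursor and bind many of the same genes. BLIMP1 (*Prdm1*) is a repressor that removes brakes on the lineage, and BCL6, one of its targets, represses OC genes and is itself such a brake. C/EBPα and C/EBPβ set up myeloid gene expression, TFEC is a relative of MITF found mainly in macrophages, and RUNX1 acts with PU.1 early in blood formation.

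Library totals lay between 15108239 and 17302136 reads. Levels are in CPM (counts relative to library size, scaled by TMM over the 8 libraries), and all changes are log2 fold changes ± SE. The targeted gene went the way of its label: *Arid1a* stood at 161 and 231 CPM in the Arid1a controls and at 127 and 122 CPM in the cKO libraries (-0.65 ± 0.15, adjusted p = 0.00607). Reads from the undeleted part of the gene remain in such a total. *Hexim1*, an inhibitor of transcription elongation that commonly rises under BET inhibitors, stood at 54.4 and 53.9 CPM in the JQ1 controls and at 105 and 110 CPM with JQ1 (0.99 ± 0.07, adjusted p = 3.35e-24). The Arid1a controls were the least alike pair, with a chi-square per degree of freedom of 16.9 over genes against 2.67 to 3.96 in the other 3 pairs. Macrophage markers were high in every library (12 markers summed to between 12729 and 26969 CPM). The sum was lowest in cKO (12729 to 12849 CPM) and highest with JQ1 (26446 to 26969). A large part of it was 1 gene, *Lyz2*. Its means were 11869 CPM in the Arid1a controls, 4530 in cKO, 12709 in the JQ1 controls and 17019 with JQ1. The 10 OC markers summed to 325 to 329 CPM in the Arid1a controls, 126 to 139 in cKO, 153 to 172 in the JQ1 controls and 56.5 to 61.9 with JQ1, and *Mmp9* alone made up 182 and 189 CPM of the first of these. *Calcr*, the calcitonin receptor of mature OCs, had no read in any library. In bulk RNA, fewer cells of a type and less RNA per cell cannot be told apart, and this holds for every change below.

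After Arid1a loss 4 of the 9 factors rose (*Cebpb*, *Bcl6*, *Tfec* and *Runx1*), 1 fell (*Prdm1*) and 4 did not pass the test. After JQ1 only *Cebpa* rose, 6 fell (*Prdm1*, *Bcl6*, *Cebpb*, *Mitf*, *Tfec* and *Spi1*) and 2 did not pass. *Bcl6*, *Cebpb* and *Tfec* moved in opposite directions in the 2 experiments, *Prdm1* was lower in both, and *Nfatc1* passed in neither. The changes were small: apart from the fall of *Prdm1* after JQ1, each was under 2-fold. Many genes moved in these data, and the members' counts are to be read beside those shares. Of all genes tested, 34.4% were called after Arid1a loss (18.1% higher and 16.3% lower) and 39.8% after JQ1 (19.3% higher and 20.5% lower). The median log2 fold change of the 9 was 0.37 after Arid1a loss and -0.21 after JQ1, with medians of 0.00 over all genes tested in both.

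**Figure D1:**
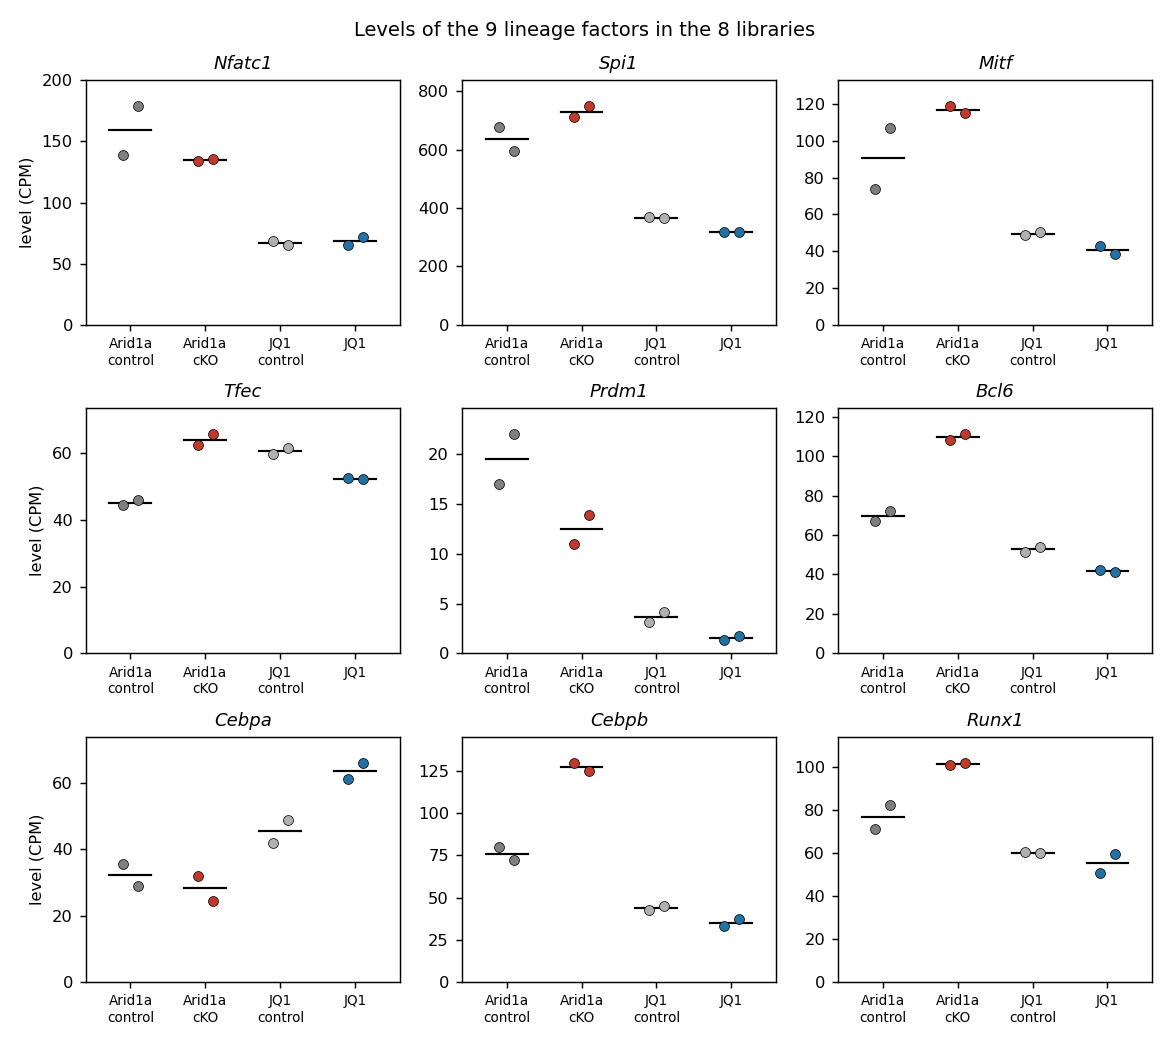
Level of each factor in CPM (vertical axes, each starting at 0) in the 8 libraries, by group. Points are libraries and bars are group means. *Bcl6*, *Cebpb* and *Tfec* rise from Arid1a control to cKO and fall from JQ1 control to JQ1, and *Prdm1* is lower in both.

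**Figure D2:**
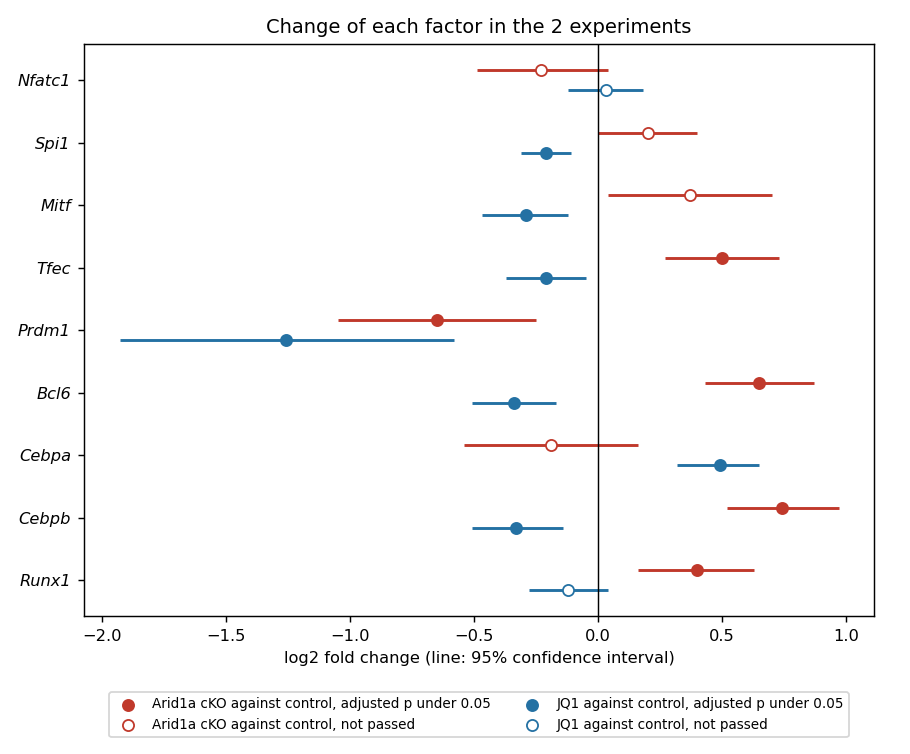
Log2 fold change of each factor (horizontal axis) after Arid1a loss (red) and after JQ1 (blue), with 95% confidence intervals from 2 libraries a group. Filled points passed an adjusted p of 0.05. *Nfatc1* is open in both experiments, and *Bcl6*, *Cebpb* and *Tfec* have filled points on both sides of 0.

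For the 3 factors that moved in opposite directions and for *Prdm1*, the 250 bases upstream of the start site of the Ensembl canonical transcript are shown because these genes carry the main pattern, a rise after one treatment with a fall after the other, or a fall after both. Bases are given 5′ to 3′ on the gene's strand, from the GRCm39 genome with GENCODE start sites. Capitals mark matches to a short list of motif letters searched on both strands. The Tfec window is chr6:16898441-16898690 (minus strand), the Bcl6 window chr16:23807603-23807852 (minus), the Cebpb window chr2:167530585-167530834 (plus) and the Prdm1 window chr10:44334781-44335030 (minus).
Tfec: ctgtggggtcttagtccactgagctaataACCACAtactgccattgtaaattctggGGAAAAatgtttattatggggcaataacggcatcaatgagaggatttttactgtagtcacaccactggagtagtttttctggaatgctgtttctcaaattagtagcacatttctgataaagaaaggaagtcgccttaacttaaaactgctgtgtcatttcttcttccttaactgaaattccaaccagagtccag
Bcl6: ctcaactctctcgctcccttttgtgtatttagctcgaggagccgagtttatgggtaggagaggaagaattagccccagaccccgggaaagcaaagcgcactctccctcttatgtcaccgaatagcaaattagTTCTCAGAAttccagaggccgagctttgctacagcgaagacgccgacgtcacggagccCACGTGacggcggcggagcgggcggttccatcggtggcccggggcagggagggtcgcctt
Cebpb: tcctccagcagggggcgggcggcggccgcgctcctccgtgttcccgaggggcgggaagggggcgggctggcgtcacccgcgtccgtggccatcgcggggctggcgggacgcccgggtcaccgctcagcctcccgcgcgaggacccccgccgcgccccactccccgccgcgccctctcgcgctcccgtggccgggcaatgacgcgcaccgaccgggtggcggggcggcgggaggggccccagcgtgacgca
Prdm1: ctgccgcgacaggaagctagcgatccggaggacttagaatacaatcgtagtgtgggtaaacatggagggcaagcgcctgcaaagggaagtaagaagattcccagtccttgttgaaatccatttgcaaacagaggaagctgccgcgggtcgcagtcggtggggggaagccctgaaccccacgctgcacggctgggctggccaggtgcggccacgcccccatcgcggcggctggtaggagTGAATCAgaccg
The capitals in Tfec are RUNX letters (TGTGGT, on the other strand) and then NFAT letters (GGAAAA). Those in Bcl6 are STAT letters (TTCNNNGAA) and then an E-box (CACGTG) of the kind that MITF and TFEC bind, and those in Prdm1 are AP-1 letters (TGANTCA). The Cebpb window holds none of the letters searched and is the richest in GC of the 9 promoters, at 80.7% over 300 bases (50 of them after the start site) against a median of 54.3% over 21770 promoters of protein-coding genes. Over those same 300 bases NFAT letters were in 24.6% of all promoters, RUNX letters in 15.3%, STAT letters in 8.81%, the E-box in 7.81% and AP-1 letters in 7.14%. Short motifs of this kind are common, and a match is not a measured binding site. Of the other factors, *Spi1* holds PU.1 letters (GAGGAAGT, in 3.07% of promoters) across its start site, together with NFAT letters. *Mitf* and *Runx1* each hold RUNX letters, *Mitf* also holds C/EBP letters (TTGCNNAA, in 10.7%) and *Runx1* an E-box, and *Cebpa* holds no match. The second E-box searched (CACATG, in 12% of promoters) and the letters of BCL6 (TTCCTNGAA, a subset of the STAT letters, in 1.61%), BLIMP1 (AGTGAAAG, in 1.2%) and IRF factors (GAAANNGAA, in 8.78%) were in none of these windows.

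NFATc1 is the factor on which the OC programme turns. *Nfatc1* (GRCm39 18:80649420-80756286, minus strand) stood at 139 and 179 CPM in the Arid1a controls and at 134 and 136 CPM in cKO. Both cKO libraries lay just below the lower control, and the gap between the controls was wider than the gap between the groups. The change was -0.23 ± 0.12 (95% confidence interval -0.49 to 0.04, adjusted p = 0.168). Without control 1 it was -0.40 and passed (adjusted p in the alternatives ran from 2.89e-10 to 0.669), and without control 2 it was -0.04. Without a control library the spread comes from the cKO pair alone, so a call gained in that way is weakly based. An offset for GC content and gene length also brought it past the threshold (-0.30). With JQ1, *Nfatc1* stood at 65.3 and 71.6 CPM against 68.7 and 65.3 in the JQ1 controls. The groups overlapped and the change was 0.03 ± 0.08 (interval -0.12 to 0.18, adjusted p = 0.789). The difference between the 2 responses did not pass either (-0.26 ± 0.15, adjusted p = 0.205).

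Of the genes beside NFATc1 in its pathway, the other NFAT factors and calcineurin, the phosphatase that activates them, 0 of 9 tested passed after Arid1a loss by edgeR (2 of 9 at an unadjusted p under 0.05). After JQ1, 5 of 9 rose and none fell (median 0.19). They included the calcineurin catalytic subunits *Ppp3ca* (0.42 ± 0.06), *Ppp3cb* (0.27 ± 0.07) and *Ppp3cc* (0.61 ± 0.17, lost without JQ1 b), and *Nfatc2* (0.49 ± 0.09, adjusted p = 1.58e-06), which rose from a mean of 39.8 to 56.0 CPM while *Nfatc1* did not pass. Several OC genes that NFATc1, MITF or PU.1 are known to bind had larger changes than any of the 9 factors. After Arid1a loss 3 of 15 tested rose and 6 fell (median -0.16), and after JQ1 2 of 14 rose and 9 fell (median -0.29). *Mmp9*, a gelatinase of resorbing cells, fell by 3.29 ± 0.11 after Arid1a loss and by 2.10 ± 0.14 after JQ1. *Ctsk*, the collagen-degrading cathepsin K, fell by 2.56 ± 0.10 after JQ1 and was also lower after Arid1a loss (-0.65 ± 0.12). *Acp5*, an acid phosphatase gene, was lower after JQ1 (-1.92 ± 0.21) and did not pass after Arid1a loss (0.17 ± 0.13). *Dcstamp*, needed for cell fusion, fell in both experiments (-2.02 ± 0.28 after Arid1a loss and -2.61 ± 0.36 after JQ1). *Itgb3*, an integrin subunit of the sealing zone, rose in both experiments (2.19 ± 0.37 after Arid1a loss, from a mean of 0.909 to 4.20 CPM, and 0.53 ± 0.14 after JQ1).

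PU.1 is the ETS factor on which all monocytes and macrophages depend. *Spi1* (2:90912735-90946101, plus strand) stood at 679 and 597 CPM in the Arid1a controls and at 712 and 750 CPM in cKO. The groups did not overlap, and the change of 0.20 ± 0.09 did not pass (interval -0.00 to 0.40, adjusted p = 0.120), though it did in 4 of 14 alternatives. With JQ1 it stood at 317 and 317 CPM against 368 and 366, a fall in both libraries (-0.21 ± 0.05, adjusted p = 3.73e-04). This fall passed in all 14 alternatives. Per length, *Spi1* was the most abundant of the 9 in each group, at 240 ± 19.7 FPKM in the Arid1a controls and 140 ± 1.31 FPKM in the JQ1 controls (SD, n = 2). *Cebpb* came next in both control groups, at 51.3 ± 3.20 and 30.1 ± 0.908 FPKM, and in cKO, while with JQ1 *Cebpa* came before it (means of 23.9 and 23.1 FPKM). Of 11 tested ETS relatives 4 rose after Arid1a loss and 1 fell. Those that rose included *Elf4* (0.74 ± 0.11), *Etv3* (0.71 ± 0.10) and *Fli1* (0.58 ± 0.12), and *Ets1* fell by 1.16 ± 0.27 (lost without cKO 2). After JQ1, 2 of 12 rose and 3 fell: *Ets2*, an effector of RAS signalling (-0.43 ± 0.06), *Elk3* (-0.61 ± 0.08) and *Spic*, the PU.1 relative of red pulp macrophages (-2.31 ± 0.48, from a mean of 2.50 to 0.503 CPM).

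MITF and TFEC are basic helix-loop-helix factors of the MiT family and bind E-boxes. *Mitf* (6:97784013-97998310, plus strand), which switches on OC enzymes with PU.1, stood at 73.9 and 107 CPM in the Arid1a controls and at 119 and 115 CPM in cKO. The 2 controls were far apart, and the change of 0.37 ± 0.15 did not pass (interval 0.04 to 0.70, adjusted p = 0.0828). It was 0.12 without control 1 and 0.66 without control 2, and it passed in 5 of 14 alternatives. With JQ1 *Mitf* stood at 42.6 and 38.4 CPM against 48.7 and 50.2, lower in both libraries (-0.29 ± 0.09, adjusted p = 0.00488). This call was lost without JQ1 library b (-0.21). *Tfec* (6:16833372-16898440, minus strand) stood at 44.4 and 46.0 CPM in the Arid1a controls and at 62.3 and 65.6 CPM in cKO. The groups were well apart and *Tfec* rose by 0.50 ± 0.10 (adjusted p = 0.00416), a call lost without cKO library 2 (0.46). With JQ1 it stood at 52.5 and 52.2 CPM against 59.7 and 61.5 (-0.21 ± 0.08, adjusted p = 0.0277). That fall was lost without JQ1 control b, JQ1 library a or JQ1 library b, with values of -0.21 to -0.19. Of the other MiT genes, *Tfe3* rose in both experiments (0.33 ± 0.09 after Arid1a loss, lost without cKO 1 or cKO 2, and 0.20 ± 0.06 after JQ1, lost without JQ1 control b or JQ1 a), and *Tfeb*, a regulator of lysosomes, did not pass (0.31 ± 0.12 and 0.05 ± 0.11).

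BLIMP1 and BCL6 are a pair of opposing repressors. *Prdm1* (10:44313173-44404497, minus strand) stood at 17 and 22 CPM in the Arid1a controls and at 11 and 13.9 CPM in cKO. Each cKO library was below each control, and *Prdm1* fell by 0.65 ± 0.18 (adjusted p = 0.0188), with the call lost without cKO library 1 (-0.49). In the JQ1 experiment it was much lower to begin with, at 3.16 and 4.11 CPM (51 and 65 reads) in the controls and 1.33 and 1.69 CPM (20 and 29 reads) with JQ1. It fell by 1.26 ± 0.34 (adjusted p = 0.00162), the largest change of the 9, with a 95% confidence interval from -1.93 to -0.58 that reflects the few reads. Without JQ1 control b this call was lost (-1.06). The falls in the 2 experiments were not shown to differ (0.60 ± 0.35, adjusted p = 0.214, interval -0.14 to 1.34). Being lower in both is a pattern shared by 6.12% of the genes tested in both.

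*Bcl6* (16:23783802-23807602, minus strand) went the other way after Arid1a loss. It stood at 67.1 and 72.3 CPM in the Arid1a controls and at 108 and 111 CPM in cKO, a clear separation (0.65 ± 0.10, adjusted p = 6.53e-04). With JQ1 it stood at 42.1 and 41.2 CPM against 51.6 and 53.8, again with no overlap (-0.34 ± 0.09, adjusted p = 7.77e-04). Both calls held in all 14 alternatives of their experiment. After Arid1a loss the mean of *Prdm1* thus went from 19.5 to 12.4 CPM while that of *Bcl6* went from 69.7 to 110 CPM. After JQ1 both were lower. Long non-coding RNAs lie over 3.46% and 7.04% of the exon bases of *Bcl6* on the other strand, and the strand setting of the counts is not given, so their reads cannot be told apart there. Of 11 tested partners and relatives of the pair, 6 rose and 1 fell after Arid1a loss (median 0.42), against 3 and 1 after JQ1 (median 0.09). The corepressor *Ncor1* rose by 0.57 ± 0.15 after Arid1a loss, its deacetylase partner *Hdac3* fell by 0.43 ± 0.11 (lost without cKO 1 or cKO 2), and *Bach1*, a repressor of the haem oxygenase gene, rose by 0.84 ± 0.11. *Zbtb16*, a relative of *Bcl6*, rose from a mean of 0.509 to 3.05 CPM (2.57 ± 0.44). After JQ1 *Prdm2* rose by 0.30 ± 0.07. *Bcor* (0.26 ± 0.10) and *Hdac3* (0.21 ± 0.08) also passed, but each lost its call in 8 of 14 alternatives, DESeq2 among them. *Bach2* (-1.93 ± 0.69, from a mean of only 0.967 CPM) lost its call in 4 of 13, with DESeq2 and without JQ1 control a, JQ1 a or JQ1 b.

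The genes that BLIMP1 is known to hold down in OC precursors, and other brakes on the lineage, mostly rose. After Arid1a loss 6 of 9 tested rose and 1 fell (median 0.52), and after JQ1 5 of 9 rose and 1 fell (median 0.31). After Arid1a loss the macrophage factor *Maf* rose by 1.19 ± 0.10 and the helix-loop-helix inhibitors *Id1* and *Id3* by 0.86 ± 0.13 and 0.77 ± 0.12. After JQ1 *Irf8*, a macrophage factor that BLIMP1 represses, rose by 0.41 ± 0.06 and *Maf* by 0.40 ± 0.06. *Irf8* did not pass after Arid1a loss (-0.19 ± 0.11), and its response differed between the experiments (-0.60 ± 0.12, adjusted p = 0.00106). *Rbpj*, the nuclear effector of Notch, was lower after both (-0.30 ± 0.05 after JQ1, and -0.30 ± 0.09 after Arid1a loss with adjusted p = 0.0242).

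C/EBPα primes myeloid precursors, and C/EBPβ takes part in macrophage activation, with a long form that holds back OC formation and a short form that favours it. Gene counts do not separate these forms, which come from 1 mRNA. *Cebpa* (7:34818718-34821353, plus strand) stood at 35.5 and 28.8 CPM in the Arid1a controls and at 32 and 24.5 CPM in cKO. The groups overlapped (-0.19 ± 0.16, adjusted p = 0.386), and the change passed only without control 2 (-0.33). With JQ1 it stood at 61.2 and 66.1 CPM against 41.9 and 48.9, and it was the only 1 of the 9 to rise (0.49 ± 0.08, adjusted p = 5.57e-07), in all 14 alternatives. *Cebpb* (2:167530835-167532338, plus strand) had the largest rise after Arid1a loss. It stood at 80.0 and 72.3 CPM in the Arid1a controls and at 130 and 125 CPM in cKO (0.74 ± 0.10, adjusted p = 2.98e-04). An offset for GC content and gene length raised this to 1.08, and *Cebpb* has the highest GC content of the 9 genes (67.2% against a median of 49.1% over the genes tested). With JQ1 it stood at 33.1 and 37.1 CPM against 42.9 and 45.2 (-0.33 ± 0.09, adjusted p = 0.00263), a call lost without JQ1 library a (-0.24). *Peds1*, on the other strand, covers 20.7% of the exon bases of *Cebpb*. It changed in the opposite direction both times (-0.26 ± 0.09, adjusted p = 0.0494, and 0.16 ± 0.06, adjusted p = 0.0340), calls that held in 9 and 5 of 14 alternatives. Among 5 tested C/EBP relatives *Cebpd* rose in both experiments (0.92 ± 0.12 after Arid1a loss, and 0.41 ± 0.11 after JQ1, lost without JQ1 b) and *Cebpz* fell after Arid1a loss (-0.33 ± 0.10, lost without cKO 1 or cKO 2). *Cebpe*, the C/EBP of granulocytes, fell by 2.73 ± 0.60 after JQ1 from a mean of 1.69 CPM.

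Neutrophil markers moved along with *Cebpb*, *Bcl6* and *Tfec*, as did some monocyte and macrophage markers given below. Of 13 tested, 10 rose and 1 (*Mmp9*) fell after Arid1a loss, and 9 of 12 fell after JQ1. The whole list of 14 summed to 332 to 346 CPM in the Arid1a controls, 284 to 310 in cKO, 135 in both JQ1 controls and 49.6 to 51.0 with JQ1. Most of that sum is *Mmp8* and *Mmp9*, and the other 12, a split made after the values were seen, summed to 25.5 to 34.5 CPM in the Arid1a controls and 133 to 156 in cKO, and to 50.5 to 54.3 in the JQ1 controls and 28 to 29.8 with JQ1. Among the abundant ones, the granule gene *Ngp* was at 69.7 and 56.3 CPM in cKO against at most 15.3 CPM in the controls (2.28 ± 0.18, adjusted p = 6.30e-06), and the calprotectin subunit *S100a9* from 5.77 and 3.38 to 27.5 and 24.6 CPM (2.50 ± 0.22). After JQ1 they fell by 0.83 ± 0.20 and 0.76 ± 0.18. The elastase gene *Elane*, at no more than 4.23 CPM in any library, rose by 2.57 ± 0.38 after Arid1a loss (adjusted p = 4.93e-04) and fell by 1.51 ± 0.36 after JQ1, and the receptor *Cxcr2* was at no more than 0.811 CPM. The sum of dendritic cell markers moved the same way, from 15.4 to 21.6 CPM in the Arid1a controls to 33.0 to 37.3 in cKO. In the JQ1 experiment it went from 13.8 to 14.5 CPM in the controls to 6.49 to 7.71 with JQ1. Most of it was the integrin gene *Itgax* (up to 36.7 CPM), called in both experiments (0.94 ± 0.16 and -1.10 ± 0.17). Each other marker of that list was at no more than 0.711 CPM in any library. Mast cell and basophil markers went from 2.08 to 2.52 CPM to 10.4 to 11.6 in cKO, with *Gata2* higher by 2.38 ± 0.26 (adjusted p = 6.44e-05), and summed to at most 0.681 CPM in the JQ1 experiment. *Gata2* was at up to 11.0 CPM, and each other marker of that list at no more than 0.936 CPM. Stromal and osteoblast markers went from 42.1 to 51.3 CPM in the JQ1 controls to 23.7 to 24.8 with JQ1 (*Col1a1*, a bone collagen gene, passed as lower), against 26 to 26.8 CPM in the Arid1a controls and 19.9 to 24.4 in cKO. Megakaryocyte markers summed to 90.5 to 119 CPM in the Arid1a controls, 80.9 to 83.9 in cKO, 60.1 to 66.3 in the JQ1 controls and 44.0 to 45.9 with JQ1. Nearly all of this was *Pf4*, and each other marker of that list was at no more than 1.36 CPM. Sums that rest on a single gene do not show that the cell type is present. The part of any such cells in the changes of the 9 factors was not tested. B cell markers summed to at most 1.86 CPM, T and NK cell markers to at most 3.66 CPM and erythroid markers to at most 1.73 CPM. Of 12 monocyte and macrophage markers, 8 rose and 2 fell after Arid1a loss, and 6 rose and 4 fell after JQ1. Among them *Cx3cr1* (2.79 ± 0.09 after Arid1a loss, -0.87 ± 0.14 after JQ1) moved in opposite directions. So did *Ly6c2* (2.95 ± 0.31 and -1.45 ± 0.43) and *Itgam* (0.34 ± 0.11 and -0.58 ± 0.07). The pattern was thus not particular to neutrophil markers. Myeloid genes bound by PU.1 or C/EBP were mixed, with 6 of 14 higher and 2 lower after Arid1a loss (median 0.20), and 5 higher and 3 lower after JQ1 (median 0.04). *Fcgr1*, the high-affinity IgG receptor, rose by 1.89 ± 0.14 after Arid1a loss and fell by 2.41 ± 0.11 after JQ1. *Lyz2*, the gene whose promoter drives the Cre, fell by 1.39 ± 0.10 after Arid1a loss and rose by 0.42 ± 0.04 after JQ1. Whether the controls carried the Cre is not given, so the Cre allele and Arid1a loss cannot be told apart in that fall.

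*Runx1* (16:92398354-92623037, minus strand) stood at 71.4 and 82.6 CPM in the Arid1a controls and at 101 and 102 CPM in cKO, a rise of 0.40 ± 0.11 (adjusted p = 0.0159). This call was lost without cKO library 1 or cKO library 2, with the value almost the same (0.40 and 0.39). With JQ1 it stood at 50.6 and 59.7 CPM against 60.4 and 59.8, and the change did not pass (-0.12 ± 0.08, interval -0.28 to 0.04, adjusted p = 0.237). Library JQ1 a alone was clearly low, and without it the change was -0.01. The relatives went elsewhere: *Runx2*, the factor of bone-forming cells, fell by 1.34 ± 0.30 after Arid1a loss from a mean of 6.29 CPM, and *Runx3* fell by 1.10 ± 0.18 after Arid1a loss and by 0.78 ± 0.29 after JQ1. The second of these calls was lost with DESeq2 and without JQ1 control b or JQ1 b, and its value ran from -1.05 to -0.44. *Cbfb*, the DNA-binding partner shared by all RUNX factors, did not pass in either experiment (0.01 ± 0.09 and -0.01 ± 0.06).

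**Figure D3:**
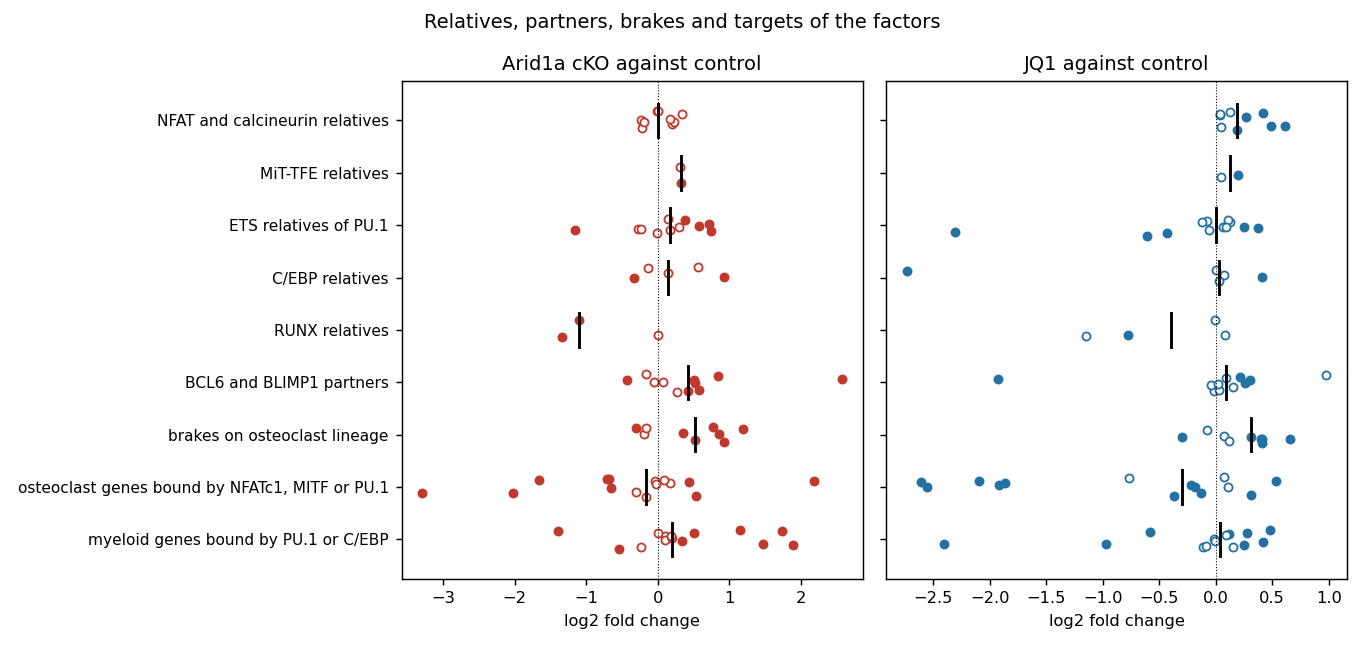
Log2 fold change (horizontal axes, each with its own scale) of the tested genes in each list of relatives, partners, brakes and targets, after Arid1a loss (left) and JQ1 (right). Points are genes, filled where the adjusted p was under 0.05, and black bars are list medians. The lineage brakes have medians of 0.52 and 0.31, and the OC target genes reach -3.29 on the left.

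Whether a factor responded differently to Arid1a loss and to JQ1 was tested as an interaction over all 8 libraries. It passed for 7 of the 9 factors, with 28.3% of all genes passing (15.8% with a positive and 12.5% with a negative difference). The difference was positive for *Cebpb* (1.07 ± 0.13, adjusted p = 1.26e-05), *Bcl6* (0.99 ± 0.12, 1.21e-05), *Tfec* (0.71 ± 0.12, 3.41e-04), *Mitf* (0.66 ± 0.19, 0.0178), *Runx1* (0.52 ± 0.14, 0.0104) and *Spi1* (0.41 ± 0.10, 0.00590). For *Cebpa* it was negative (-0.68 ± 0.19, 0.0134). *Bcl6*, *Cebpb* and *Tfec* held in all 17 alternatives. *Mitf* was lost without cKO 1, cKO 2 or JQ1 b (0.64, 0.68 and 0.58), *Cebpa* without cKO 2, JQ1 control a or JQ1 b (-0.50, -0.57 and -0.62), *Spi1* without cKO 2 (0.37) and *Runx1* without JQ1 a (0.40). The pattern of *Bcl6*, *Cebpb* and *Tfec*, called higher after Arid1a loss and lower after JQ1, was met by 5.17% of the 10987 genes tested in both experiments. Each experiment had its own controls, and anything else in which the 2 experiments differ cannot be told apart from the treatment in this contrast.

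**Figure D4:**
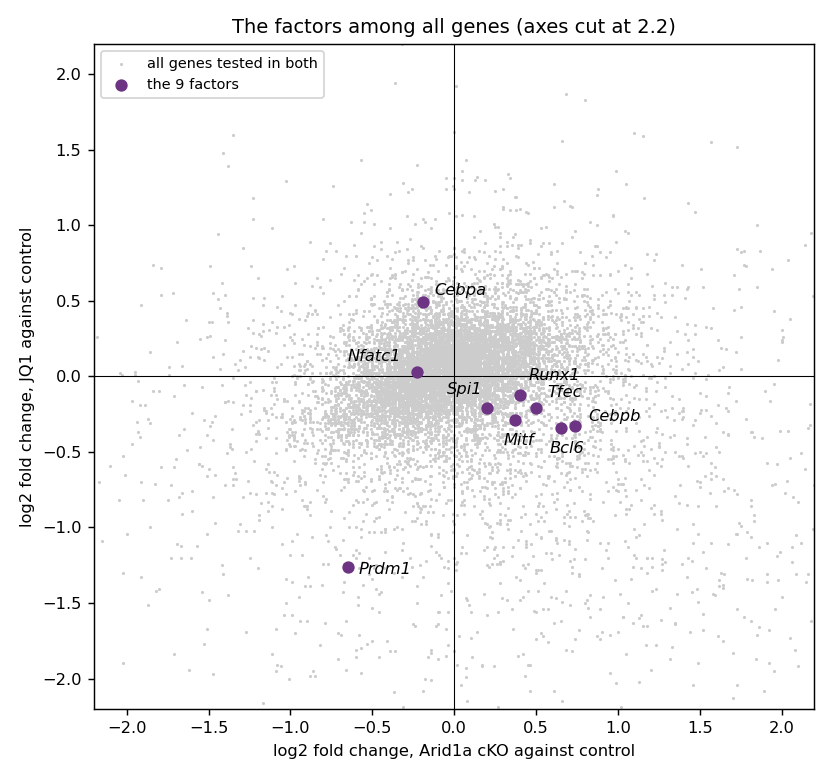
Log2 fold change after JQ1 (vertical axis) against that after Arid1a loss (horizontal axis) for the genes tested in both experiments (grey) and the 9 factors (purple), with genes beyond 2.2 on either axis left outside the frame. *Bcl6*, *Cebpb*, *Tfec*, *Mitf*, *Runx1* and *Spi1* lie at the lower right, *Prdm1* at the lower left, and *Cebpa* at the upper left.

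The control cultures of the 2 experiments were unlike each other, and their levels are given as a description. *Prdm1* was 5.37 times as high in the Arid1a controls as in the JQ1 controls, *Nfatc1* 2.37 times, *Mitf* 1.83, *Spi1* 1.74, *Cebpb* 1.73, *Bcl6* 1.32 and *Runx1* 1.28 times. *Tfec* and *Cebpa* were instead 1.34 and 1.41 times as high in the JQ1 controls. In none of the 9 did the 2 control groups overlap. The share of all genes without overlap was not computed, either here or for the neighbouring groups below. Such counts therefore cannot be read as particular to the 9. In the order of the 4 groups, *Spi1*, *Mitf*, *Bcl6*, *Cebpb* and *Runx1* went from cKO down through Arid1a control and JQ1 control to JQ1, with no overlap between neighbours. *Prdm1* and *Nfatc1* started from the Arid1a control, *Tfec* ended with it (63.9 in cKO, 60.6 in JQ1 control, 52.4 in JQ1 and 45.2 CPM), and *Cebpa* was highest with JQ1. Neighbouring groups overlapped only for *Nfatc1*, between JQ1 and JQ1 control, and for *Cebpa*, between Arid1a control and cKO. In FPKM the order was the same for 7 of the 9, the others being *Nfatc1*, for which JQ1 control (9.21) and JQ1 (9.07) changed places, and *Tfec*, for which cKO and JQ1 control were both at 11.1.

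The genes most like each factor were found by Pearson's r over the 8 libraries, on log2(CPM + 1) centred within each experiment, among 8486 genes with a mean of at least 10 CPM. With 8 libraries in 4 groups such values run high for any gene that moved, and they are a description. *Tfec* and *Bcl6* were among each other's top 3 (r = 0.995). *Bcl6* was also close to *Sh2d3c* (0.999) and *Cd109* (0.994), and *Tfec* to *Ebi3* (0.994) and *Zbed3* (0.993). *Cebpb* was closest to *Igsf6* (0.998), *Tgm2* (0.993) and *Gch1* (0.992), and *Spi1* to *Galm* (0.996), *Gpr162* (0.993) and *Cdipt* (0.979). *Runx1* was closest to *Adgrl2*, *Tob2* and *Cdk14* (0.992 to 0.980), *Mitf* to *Tcf12*, *Trps1* and *Nedd9* (0.978 to 0.952), *Cebpa* to *Antkmt*, *Rgs10* and *Commd3* (0.987 to 0.979) and *Nfatc1* to *Kdm5b*, *Hdlbp* and *Agrn* (0.983 to 0.973). *Prdm1* was under the minimum level. Among the members, *Nfatc1* had its most negative values with *Spi1* (r = -0.72) and *Cebpb* (-0.65), then *Tfec* (-0.55) and *Bcl6* (-0.52). With *Runx1* (-0.21), *Mitf* (-0.03) and *Cebpa* (-0.02) the values were nearer to none. *Nfatc1* passed in neither experiment, and its Arid1a controls were far apart (139 and 179 CPM), so these values do not show an opposed response.

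**Figure D5:**
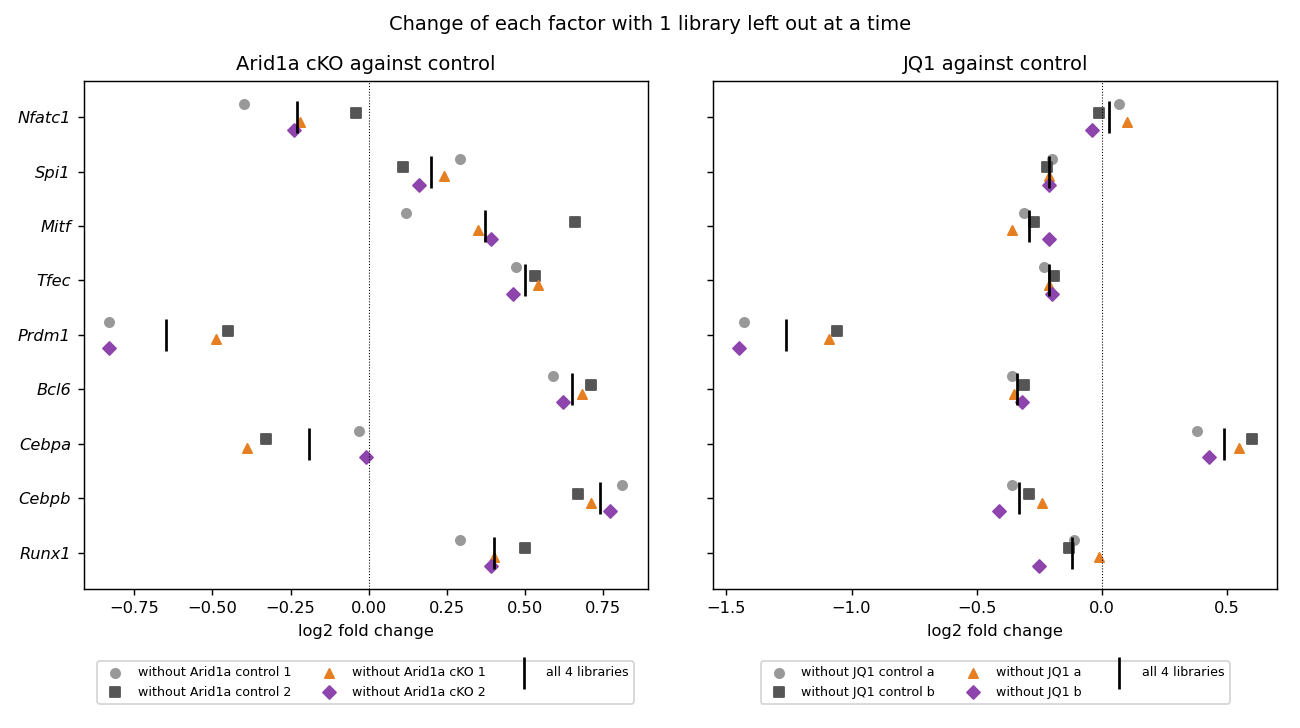
Log2 fold change (horizontal axes) of each factor with 1 library left out at a time (symbols) and with all 4 libraries of the experiment (black bars). The 2 Arid1a controls pull *Nfatc1* between -0.40 and -0.04 and *Mitf* between 0.12 and 0.66, while *Bcl6* stays between 0.59 and 0.71 after Arid1a loss and between -0.36 and -0.31 after JQ1.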

How the data were processed

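The authors used Cutadapt for trimming, HISAT2 for alignment to GRCm39 and HTSeq for counting, and deposited raw read counts per gene as whole numbers. The strand setting is not given in the sources used here. The deposited FPKM columns (8 of them) were not used, and FPKM was computed here from counts, deposited gene length and library totals, only to set 1 gene beside another. JQ1 columns carry codes read as untreated and treated, and their libraries are called a and b.

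Each experiment was fitted with edgeR 4.0.16 under R 4.3.3 (filterByExpr, TMM, robust quasi-likelihood F test), with Benjamini-Hochberg adjustment over all genes tested and a call at an adjusted p under 0.05. The SE of a log2 fold change was taken from F (its size over the root of F). The difference of responses was an interaction over 8 libraries. Alternatives were DESeq2 1.42.0, limma-voom 3.58.1, other scaling and filters, an offset for GC content and gene length, a replicate block, 1 fit over 8 libraries, a fold of 2 with unadjusted p, and leaving out each library. Scripts were tested on simulated data with changes of at least 2-fold and the same spread in every library. Most changes of the 9 factors were smaller, so that test does not cover them. Named were the 9 members, *Arid1a*, *Hexim1*, up to 4 genes a list by smallest p, and the 3 genes most like each member. Further genes, *Peds1* and *Elane* among them, were picked after values were seen. Not every gene meeting this rule is reported here. Members and lists were chosen with earlier results of these data known.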

Additional observations from a re-analysis of the deposited data

Results flagged for a closer look

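The responses of 7 factors to Arid1a loss and to JQ1 differed by the interaction test of edgeR, as log2 differences (Arid1a loss minus JQ1). They were *Spi1* (0.41), *Mitf* (0.66), *Tfec* (0.71), *Bcl6* (0.99), *Cebpb* (1.07), *Runx1* (0.52) and *Cebpa* (-0.68). Each experiment had its own controls, and other differences between the experiments cannot be told apart from the treatments here. With 2 libraries in each group no group was large enough to test for a single library far from the others.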

How the results depend on the processing

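Of 404 recomputed log2 fold changes of the 9 factors, 366 kept their direction and their side of the threshold, 21 lost and 13 gained a call, and 4 changed sign, all for *Nfatc1* after JQ1 (-0.02 with library totals alone, -0.01 with the GC and length offset, and -0.01 and -0.04 without JQ1 control b and without JQ1 b, in a leave-one-out range of -0.04 to 0.10). With the GC and length offset 8 of 9 factors were called after Arid1a loss in place of 5, with *Nfatc1* lower and *Spi1* (0.31) and *Mitf* (0.32) higher. Of the 11319 genes tested, 4571 were called with this offset in place of 3892. The study's thresholds, unadjusted p under 0.05 and 2-fold, were applied here to edgeR p-values, where the study used DESeq. With them 0 factors were called after Arid1a loss, 1 after JQ1 and 1 for the difference, and 1110, 859 and 1462 genes. The study reports no test of that difference. With 1 fit over 8 libraries 2973 genes were called after JQ1 in place of 4516. Leaving out 1 library gave 3 to 8 factors after Arid1a loss, 5 to 7 after JQ1 and 4 to 8 for the difference, and 2235 to 6083, 3251 to 3915 and 2214 to 4965 genes. Scaling by library totals alone gave 1626 genes higher and 2840 lower after JQ1 in place of 2188 and 2328. *Prdm1* was not tested after JQ1 with a filter of at least 5 CPM. *Tfec* lost its call after JQ1 with DESeq2 and with 1 fit over 8 libraries, which also lost *Mitf* after JQ1. Calls of list genes were followed for up to 4 genes a list by smallest p. Of these, 20 of 24 after Arid1a loss and 21 of 28 after JQ1 held in every alternative run, and none changed sign. Those lost in at least 1 were *Tfe3*, *Ets1*, *Cebpz* and *Hdac3* after Arid1a loss (each without cKO 1 or cKO 2, *Ets1* without cKO 2), and *Ppp3cc* and *Cebpd* (both without JQ1 b), *Tfe3*, *Runx3*, *Bach2*, *Hdac3* and *Bcor* after JQ1, the last 2 in 8 of 14. FPKM in place of CPM left the order of the 4 groups as it was for 7 of 9 factors.

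Same-numbered libraries did not deviate together (correlation of their deviations 0.03 in the Arid1a and -0.05 in the JQ1 experiment). This showed no sign of a pairing by number, but a correlation over genes from so few libraries cannot exclude one. The labels do not say whether libraries were paired. With the replicate block 6 factors passed after Arid1a loss, *Mitf* being added (0.39), 7 after JQ1 and 7 for the difference, and 4400, 4129 and 3330 genes.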
